A study of Mus musculus with 16 samples.

Results

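The genes described here copy DNA or supply its building blocks in dividing cells. A list of 43 genes was taken, and a gene was measured where a probe set of the array carried its symbol and no other. Where a gene had several, the probe set of highest mean intensity was used. By this rule 41 of the 43 genes were measured, out of 12393 genes on the arrays, and Gins2 and Chaf1a had no such probe set.

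The study asked how ozone acts on the lungs of mice that lack adiponectin, a hormone secreted by fat cells. Left lungs came from adiponectin-deficient mice on a C57BL/6 background or from wildtype C57BL/6 mice, which had breathed 0.3 ppm ozone, an oxidant air pollutant, or room air for 72 h. There were thus 4 groups, deficient ozone, wildtype ozone, deficient air and wildtype air, with 4 mice in each and a mean age of 14 weeks. Every group held 2 males and 2 females, called M1, M2, F1 and F2, and values of single arrays are given in that order. Each mouse gave total RNA of its left lung to 1 Affymetrix array. The labels used here do not say how the adiponectin gene was disrupted.

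Before a cell copies its DNA, the origin recognition complex, Cdc6 and Cdt1 place the ring-shaped Mcm helicase on replication origins, a step called licensing. Cdc45 and the GINS complex then start the helicase, primase and the polymerases build the new strands, a clamp holds the polymerases on DNA, and nucleotide enzymes keep the building blocks in supply. Many genes of this set, though not all, are transcribed mainly as cells enter S phase and are lower in resting tissue. The healthy adult lung divides slowly.

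The arrays had median intensities of 146 to 154, and precision is limited by how few arrays there were. Adipoq, which encodes adiponectin, averaged 6.68 ± 0.90 log2 intensity in deficient lungs and 8.48 ± 1.35 in wildtype lungs (SD, n = 8 each), which differ by -1.80 log2 (exact permutation test, two-sided p = 0.0042). Within ozone the genotypes did not overlap, but in air the array labelled deficient air F2 read 8.82 against 7.19 to 11.52 in wildtype air. Of the air arrays, wildtype air F1 and the array labelled deficient air F2 carried fat markers, with summed intensities of up to 3528 in wildtype air and 1017 in deficient air. Deficient air M2 carried muscle markers at a summed intensity of 16080.5 and squamous epithelium markers at 10544, against at most 567 and 267 in the other groups. Neutrophil markers stood at a summed intensity of 40868.4 on wildtype ozone M2 and at no more than 6847 on any of the remaining arrays. In the labels of wildtype ozone F1 the free text says room air and the other fields say ozone, and the array lay among the ozone arrays on the first principal component, at 17.58 against 12.81 to 24.76 for ozone and -20.77 to -15.86 for air. Counts of genes that changed are given with and without these arrays below.

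Most of the replication genes were higher after ozone than in air, in both genotypes. In deficient lungs 35 of the 41 genes rose, 0 fell and 6 did not pass the test, and the median log2 difference between ozone and air was 0.72. In wildtype lungs 31 rose, 0 fell and 10 did not pass, with a median of 0.59. Over all genes 15.8% rose and 14.6% fell in deficient lungs, and 19.6% rose and 17.1% fell in wildtype lungs, and the median log2 differences were 0.012 and 0.032. The test was limma's, with Benjamini-Hochberg adjustment over all genes and an adjusted p under 0.05, and each difference below is a log2 difference ± SE with 4 arrays per group. In whole lung tissue, more cells that express a gene and more RNA of it per cell cannot be told apart.

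A rise of at least 2-fold was met by 8 of the genes in deficient lungs, where 1.05% of all genes met it, and by 6 in wildtype lungs, where 0.823% did. The ozone arrays lay above every air array of their genotype for 35 genes in deficient lungs and for 31 in wildtype lungs, as they did for 15.4% and 17.1% of all genes. None of the genes lay below, although 13.3% and 14.2% of all genes did. The calls of the genotypes had 30 genes in common, of the 35 of deficient lungs and the 31 of wildtype lungs. Pola1 passed in wildtype lungs alone, while Gmnn, Pola2, Prim2, Rpa2 and Fen1 passed in deficient lungs alone, and Orc6, Pold1, Rpa1, Tipin and Tyms passed in neither. Whether a gene's rise differed between the genotypes is a separate test, given further on.

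Without wildtype air F1 and the arrays labelled deficient air F2 and M2, 30 genes rose in deficient lungs and 31 in wildtype lungs. Gmnn, Pola2, Prim2, Fen1 and Rfc2 no longer passed in deficient lungs then, with adjusted p-values of 0.202, 0.0985, 0.110, 0.0828 and 0.0756. In wildtype lungs Pola1 was lost at 0.0553 and Fen1 passed at 0.0493. Without wildtype ozone F1 the count in wildtype lungs was 31, and without wildtype ozone M2 it was 30.

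**Figure D1:**
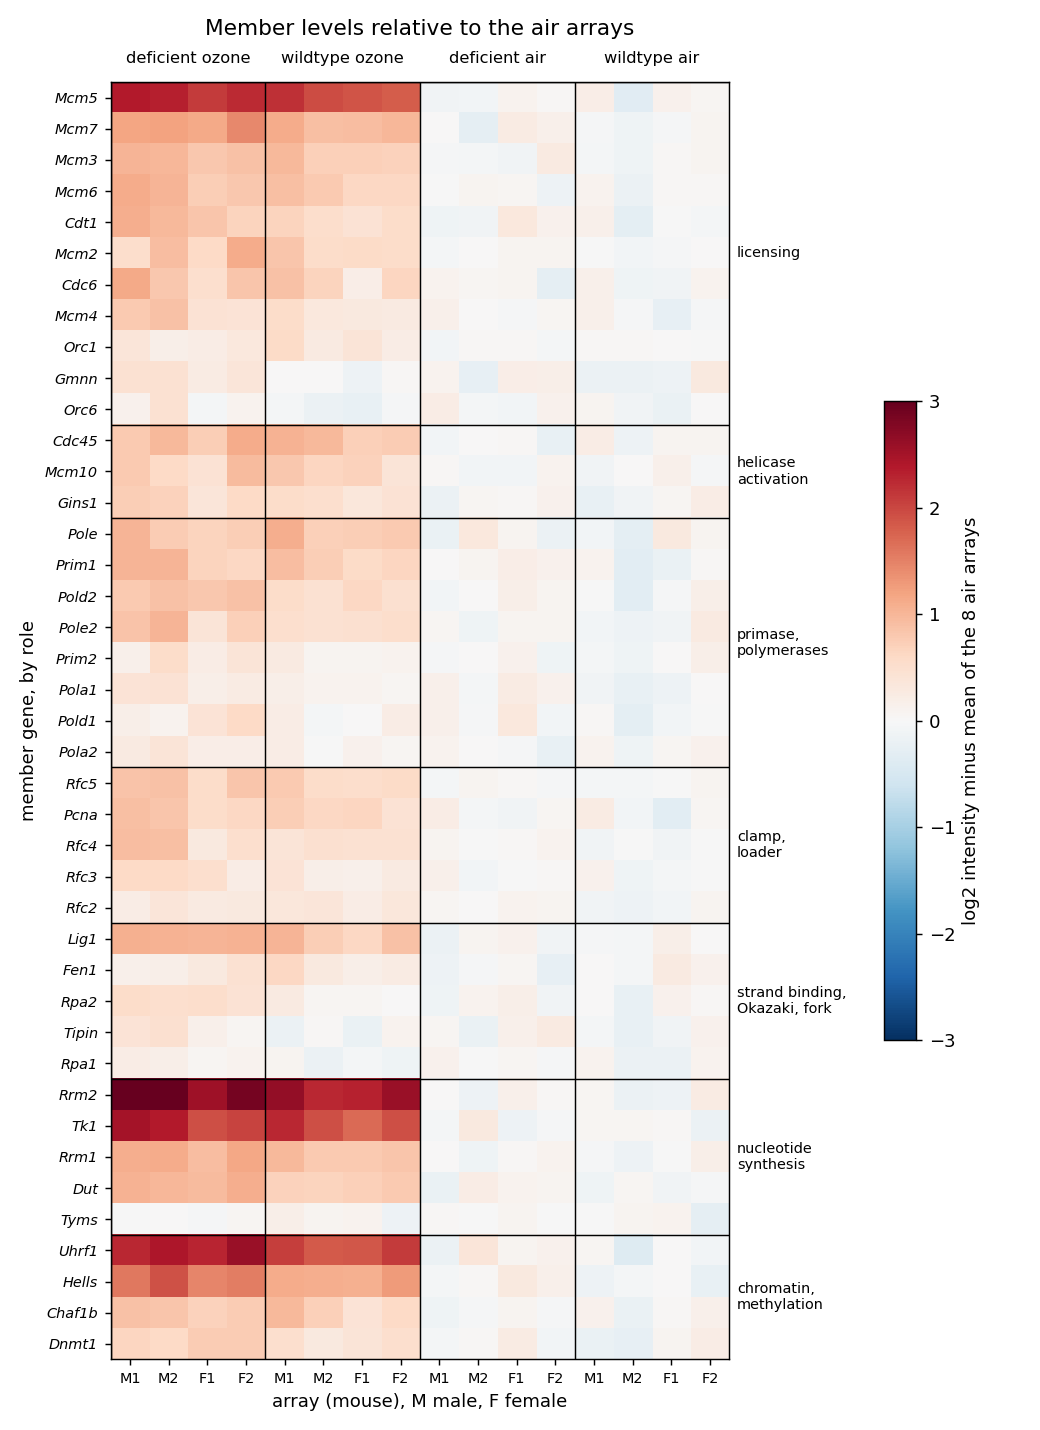
Heat map of the 41 measured replication genes (rows, by role) on the 16 arrays (columns), coloured by log2 intensity minus the mean of the 8 air arrays. Both ozone groups are red in most rows and the air groups are near white, with the deepest red for Rrm2, Mcm5, Uhrf1 and Tk1 and pale rows for Orc6, Tyms, Rpa1 and Tipin.

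As one number per array, the median over the 41 genes of the log2 intensity minus the mean of the 8 air arrays was 0.79, 0.83, 0.54 and 0.71 on the deficient ozone arrays and 0.67, 0.52, 0.45 and 0.49 on the wildtype ozone arrays. On the air arrays it lay between -0.14 and 0.08, so each ozone array stood above every air array. Over all genes the same median lay between -0.03 and 0.05 on the 16 arrays. On deficient ozone arrays 35 to 38 of the genes exceeded all 8 air arrays, and on wildtype ozone arrays 30 to 35 did. Wildtype ozone M1 was the highest array of its group for 30 of the 41 genes, and deficient ozone F1 was the lowest of its group for 26.

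Promoter sequences are shown for 6 genes, picked by their change after ozone and, in part, by their letters. They span 250 bases before to 50 bases after the transcription start, from RefSeq on build GRCm38.p6, and a window was found for 34 of the 41 genes. Rrm2 had the largest rise. Mcm5, Hells, Mcm3 and Mcm6 had the largest rises among genes with a single window and a match to the letters of an E2F site, the element bound by the E2F factors of S phase genes. Orc6 passed in neither genotype and had the smallest mean change among genes with a single window. Since Mcm5, Hells, Mcm3 and Mcm6 were picked for their E2F letters, the sequences shown cannot tell whether such letters go with a rise. Capitals mark E2F letters (TTTCGCGC, TTTGGCGC, TTTCCCGC or TTTGCCGC) and CCAAT, the letters bound by the factor NF-Y, on either strand, with overlapping matches drawn as 1 run.
Rrm2 (chr12:24708004-24708303, plus strand): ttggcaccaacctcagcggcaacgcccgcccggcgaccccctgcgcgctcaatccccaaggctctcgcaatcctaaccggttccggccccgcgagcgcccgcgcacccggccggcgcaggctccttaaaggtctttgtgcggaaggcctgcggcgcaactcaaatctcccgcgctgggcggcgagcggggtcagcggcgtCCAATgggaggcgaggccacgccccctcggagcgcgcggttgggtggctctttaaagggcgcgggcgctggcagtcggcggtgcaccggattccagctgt
Mcm5 (chr8:75109259-75109558, plus strand): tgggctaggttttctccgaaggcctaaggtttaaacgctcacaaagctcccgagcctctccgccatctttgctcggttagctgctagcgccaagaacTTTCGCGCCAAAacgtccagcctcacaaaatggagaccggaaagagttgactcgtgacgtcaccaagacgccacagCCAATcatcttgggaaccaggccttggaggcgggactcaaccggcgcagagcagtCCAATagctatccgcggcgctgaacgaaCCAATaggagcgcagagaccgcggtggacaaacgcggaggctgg
Hells (chr19:38930740-38931039, plus strand): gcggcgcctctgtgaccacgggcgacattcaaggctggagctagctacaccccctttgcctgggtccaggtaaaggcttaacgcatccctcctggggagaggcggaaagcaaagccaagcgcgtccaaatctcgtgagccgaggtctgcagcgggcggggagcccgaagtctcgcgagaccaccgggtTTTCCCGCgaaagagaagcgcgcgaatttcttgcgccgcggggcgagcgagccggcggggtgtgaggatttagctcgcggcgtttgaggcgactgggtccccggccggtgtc
Mcm3 (chr1:20820263-20820562, minus strand): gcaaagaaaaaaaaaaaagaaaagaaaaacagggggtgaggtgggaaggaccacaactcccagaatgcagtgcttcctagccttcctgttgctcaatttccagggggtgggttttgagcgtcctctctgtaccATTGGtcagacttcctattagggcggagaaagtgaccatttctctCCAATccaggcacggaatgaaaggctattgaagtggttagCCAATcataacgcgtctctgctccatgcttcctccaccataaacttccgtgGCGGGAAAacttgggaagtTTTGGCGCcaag
Mcm6 (chr1:128359656-128359955, minus strand): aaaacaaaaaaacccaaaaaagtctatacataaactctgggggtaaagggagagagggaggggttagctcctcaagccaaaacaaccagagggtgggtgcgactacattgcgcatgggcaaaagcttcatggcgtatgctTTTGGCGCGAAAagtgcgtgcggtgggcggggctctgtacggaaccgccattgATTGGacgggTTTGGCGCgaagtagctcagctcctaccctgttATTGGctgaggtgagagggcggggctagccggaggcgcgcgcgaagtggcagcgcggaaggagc
Orc6 (chr8:85299382-85299681, plus strand): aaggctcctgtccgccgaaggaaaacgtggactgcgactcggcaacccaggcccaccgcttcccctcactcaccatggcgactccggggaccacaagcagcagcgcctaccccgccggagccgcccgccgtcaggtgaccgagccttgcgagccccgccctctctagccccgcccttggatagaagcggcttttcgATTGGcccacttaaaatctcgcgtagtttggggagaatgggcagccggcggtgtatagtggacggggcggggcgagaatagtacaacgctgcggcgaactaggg

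Mcm5 and Mcm6 each held E2F letters on both strands in one overlapping run, upstream of the start. Mcm3 held matches downstream of its start, and Hells held 1 upstream. Rrm2 and Orc6 held CCAAT letters and none of the searched E2F letters. Among all 34 genes with a window, 15 (44.1%) held E2F letters, against 704 (2.6%) of 27025 genes with a window of the same length. The median GC content was 58.0% in the windows of the 34 genes and 52.7% in all windows. Among windows with at least the lowest GC of the set, 38.7%, 2.81% of genes held the letters. The median GC of those windows was 54.0%, still below that of the set, so GC content was not matched. Genes that rose in both genotypes held them in 13 of 26 cases and the others in 2 of 8. Tk1 rose in both genotypes without E2F letters in its window, and Pold1 held them and passed in neither. CCAAT was present for 20 genes (58.8%), against 41.1% of all genes. The letters of the cell cycle homology region, TTTGAA or TTCGAA, were present for 7 (20.6%), against 21.7%. A match describes letters in the window and is not a measured binding site.

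Licensing genes rose in both genotypes, 10 of 11 in deficient lungs and 9 of 11 in wildtype lungs, with median log2 differences of 0.82 and 0.60. Mcm5, a subunit of the helicase ring, changed most. It stood at 8.77, 8.73, 8.48 and 8.61 log2 intensity on deficient ozone arrays, against 6.27, 6.31, 6.49 and 6.42 on deficient air arrays, a difference of 2.28 ± 0.11 (adjusted p = 4.48e-09). In wildtype lungs Mcm5 stood at 8.58, 8.34, 8.28 and 8.20 log2 intensity on wildtype ozone arrays, against 6.57, 6.04, 6.52 and 6.44 on wildtype air arrays, a difference of 1.95 ± 0.11 (adjusted p = 3.14e-08). The ozone arrays were far above the air arrays in both genotypes, a 4.84-fold rise in deficient lungs and a 3.87-fold rise in wildtype lungs. Mcm7, another ring subunit, read 10.00, 10.02, 9.94 and 10.27 log2 intensity on deficient ozone arrays, against 8.81, 8.54, 9.05 and 8.97 on deficient air arrays, a difference of 1.21 ± 0.09 (adjusted p = 3.94e-07). In wildtype lungs Mcm7 read 9.93, 9.72, 9.73 and 9.82 log2 intensity on wildtype ozone arrays, against 8.77, 8.68, 8.78 and 8.91 on wildtype air arrays, a difference of 1.02 ± 0.09 (adjusted p = 3.02e-06). Here too the exposures were apart on all arrays, and wildtype ozone M1 was the highest of its group. Mcm3, also of the ring, read 8.35, 8.32, 8.14 and 8.21 log2 intensity on deficient ozone arrays, against 7.30, 7.29, 7.22 and 7.60 on deficient air arrays, a difference of 0.90 ± 0.09 (adjusted p = 5.50e-06). In wildtype lungs Mcm3 read 8.31, 8.06, 8.05 and 8.03 log2 intensity on wildtype ozone arrays, against 7.27, 7.20, 7.38 and 7.41 on wildtype air arrays, a difference of 0.79 ± 0.09 (adjusted p = 2.13e-05). Neither genotype had an air array as high as its lowest ozone array.

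The other ring subunits rose less than Mcm5. Mcm6 lay at 9.26 to 9.64 log2 intensity on deficient ozone arrays, against 8.37 to 8.62 on deficient air arrays, a difference of 0.92 ± 0.08 (adjusted p = 1.97e-06). Wildtype lungs had Mcm6 at 9.15 to 9.42 in ozone, against 8.36 to 8.64 in air, a difference of 0.73 ± 0.08 (adjusted p = 2.23e-05). Mcm2 lay at 9.13 to 9.70 log2 intensity on deficient ozone arrays, against 8.55 to 8.69 on deficient air arrays, a difference of 0.76 ± 0.11 (adjusted p = 9.99e-05). Wildtype lungs had Mcm2 at 9.16 to 9.43 in ozone, against 8.52 to 8.61 in air, a difference of 0.66 ± 0.11 (adjusted p = 0.000280). Mcm4 read 9.10, 9.20, 8.77 and 8.73 log2 intensity on deficient ozone arrays, against 8.49, 8.33, 8.29 and 8.37 on deficient air arrays, a difference of 0.58 ± 0.08 (adjusted p = 0.000104). In wildtype lungs Mcm4 read 8.88, 8.64, 8.61 and 8.60 log2 intensity on wildtype ozone arrays, against 8.47, 8.28, 8.07 and 8.28 on wildtype air arrays, a difference of 0.40 ± 0.08 (adjusted p = 0.00147). Deficient ozone M1 and M2, the males, were above the other deficient ozone arrays for Mcm4, and sex is taken up further on. The loading factor Cdt1 lay at 8.61 to 9.01 log2 intensity on deficient ozone arrays, against 7.80 to 8.24 on deficient air arrays, a difference of 0.84 ± 0.12 (adjusted p = 0.000103). Wildtype lungs had Cdt1 at 8.37 to 8.60 in ozone, against 7.64 to 8.09 in air, a difference of 0.60 ± 0.12 (adjusted p = 0.00120). Cdc6, which loads the ring together with Cdt1, lay at 6.41 to 7.04 log2 intensity on deficient ozone arrays, against 5.64 to 6.02 on deficient air arrays, a difference of 0.82 ± 0.12 (adjusted p = 0.000185). Wildtype lungs had Cdc6 at 6.11 to 6.78 in ozone, against 5.78 to 6.05 in air, a difference of 0.59 ± 0.12 (adjusted p = 0.00199). Orc1, the largest subunit of the origin recognition complex, lay at 4.40 to 4.57 log2 intensity on deficient ozone arrays, against 4.12 to 4.26 on deficient air arrays, a difference of 0.29 ± 0.07 (adjusted p = 0.00649). Wildtype lungs had Orc1 at 4.44 to 4.79 in ozone, against 4.20 to 4.26 in air, a difference of 0.35 ± 0.07 (adjusted p = 0.00182). Orc1 is among the dimmest genes on these arrays.

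Geminin and Orc6 did not follow the helicase genes in both genotypes. Gmnn encodes geminin, which binds Cdt1 and keeps origins from being licensed again. It stood at 8.80, 8.81, 8.59 and 8.70 log2 intensity on deficient ozone arrays, against 8.43, 8.09, 8.54 and 8.51 on deficient air arrays, a difference of 0.33 ± 0.11 (adjusted p = 0.0377). In wildtype lungs Gmnn stood at 8.36, 8.34, 8.19 and 8.38 log2 intensity on wildtype ozone arrays, against 8.16, 8.16, 8.18 and 8.64 on wildtype air arrays, a difference of 0.03 ± 0.11 (adjusted p = 0.848). The deficient groups did not overlap, while wildtype air F2 exceeded every wildtype ozone array. The call in deficient lungs was lost without deficient air M1 or M2 or without deficient ozone M1, M2 or F2, with adjusted p-values of 0.0524 to 0.121. Orc6, a small subunit of the origin recognition complex, read 7.59, 7.90, 7.39 and 7.57 log2 intensity on deficient ozone arrays, against 7.68, 7.40, 7.38 and 7.58 on deficient air arrays, a difference of 0.10 ± 0.10 (adjusted p = 0.454). In wildtype lungs Orc6 read 7.40, 7.28, 7.24 and 7.42 log2 intensity on wildtype ozone arrays, against 7.54, 7.34, 7.25 and 7.46 on wildtype air arrays, a difference of -0.06 ± 0.10 (adjusted p = 0.639). The exposures overlapped in both genotypes.

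**Figure D2:**
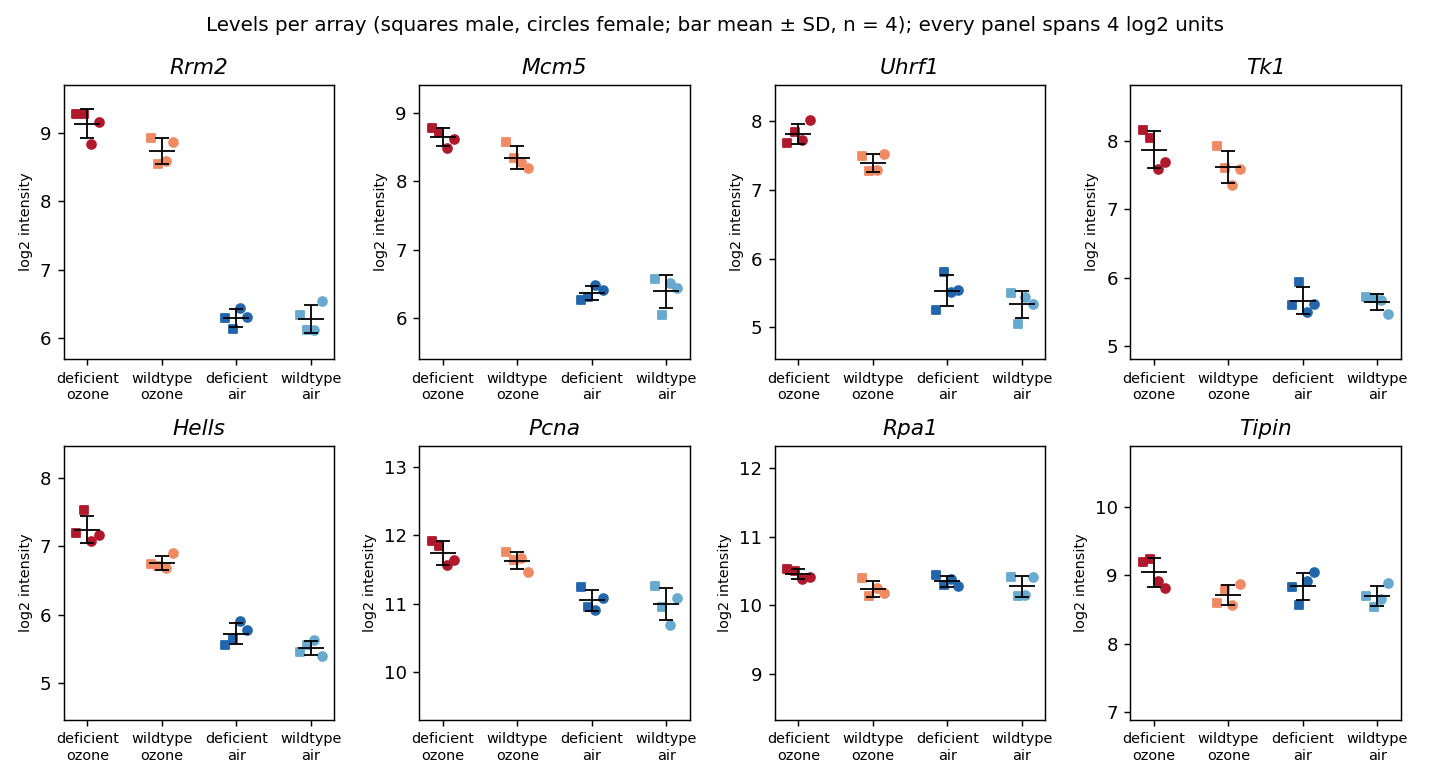
Log2 intensity of 8 replication genes on each of the 16 arrays (vertical axis, every panel spans 4 log2 units), with squares for males, circles for females and bars for mean ± SD of 4 arrays. Rrm2, Mcm5, Uhrf1, Tk1 and Hells stood apart between ozone and air in both genotypes, Pcna rose by less, and the groups overlapped for Rpa1 and Tipin.

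Helicase activation genes all rose, 3 of 3 in each genotype. Cdc45, part of the running helicase, read 6.82, 7.01, 6.76 and 7.13 log2 intensity on deficient ozone arrays, against 5.94, 6.04, 6.06 and 5.80 on deficient air arrays, a difference of 0.97 ± 0.10 (adjusted p = 9.46e-06). In wildtype lungs Cdc45 read 7.07, 6.99, 6.74 and 6.80 log2 intensity on wildtype ozone arrays, against 6.26, 5.88, 6.12 and 6.12 on wildtype air arrays, a difference of 0.80 ± 0.10 (adjusted p = 5.11e-05). All ozone arrays exceeded all air arrays. Mcm10, which helps to start the helicase, read 6.24, 6.07, 5.89 and 6.41 log2 intensity on deficient ozone arrays, against 5.50, 5.38, 5.38 and 5.58 on deficient air arrays, a difference of 0.69 ± 0.11 (adjusted p = 0.000264). In wildtype lungs Mcm10 read 6.27, 6.11, 6.16 and 5.86 log2 intensity on wildtype ozone arrays, against 5.35, 5.48, 5.62 and 5.42 on wildtype air arrays, a difference of 0.63 ± 0.11 (adjusted p = 0.000490). The exposures were again apart, with Mcm10 among the dimmest genes and a dimmer second probe set that did not pass in either genotype. Gins1, a subunit of the GINS complex, read 6.46, 6.41, 6.09 and 6.32 log2 intensity on deficient ozone arrays, against 5.55, 5.78, 5.77 and 5.86 on deficient air arrays, a difference of 0.58 ± 0.10 (adjusted p = 0.000579). In wildtype lungs Gins1 read 6.29, 6.23, 6.06 and 6.15 log2 intensity on wildtype ozone arrays, against 5.52, 5.63, 5.79 and 5.94 on wildtype air arrays, a difference of 0.46 ± 0.10 (adjusted p = 0.00286). The lowest ozone array exceeded the highest air array in both genotypes, by little in wildtype lungs.

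Primase and polymerase genes rose in part, 6 of 8 in deficient lungs and 5 of 8 in wildtype lungs, with median log2 differences of 0.53 and 0.37. Pole, the catalytic subunit of polymerase epsilon that copies the leading strand, read 7.04, 6.78, 6.68 and 6.77 log2 intensity on deficient ozone arrays, against 5.83, 6.33, 6.11 and 5.84 on deficient air arrays, a difference of 0.79 ± 0.14 (adjusted p = 0.000579). In wildtype lungs Pole read 7.12, 6.74, 6.76 and 6.82 log2 intensity on wildtype ozone arrays, against 5.94, 5.73, 6.32 and 6.10 on wildtype air arrays, a difference of 0.84 ± 0.14 (adjusted p = 0.000340). No air array reached an ozone array of its genotype. Prim1, the catalytic subunit of primase, read 7.68, 7.68, 7.32 and 7.27 log2 intensity on deficient ozone arrays, against 6.66, 6.72, 6.84 and 6.78 on deficient air arrays, a difference of 0.73 ± 0.11 (adjusted p = 0.000151). In wildtype lungs Prim1 read 7.58, 7.38, 7.24 and 7.30 log2 intensity on wildtype ozone arrays, against 6.75, 6.33, 6.45 and 6.68 on wildtype air arrays, a difference of 0.82 ± 0.11 (adjusted p = 6.04e-05). Males in deficient ozone lay above the females, and the exposures were apart in both genotypes. Pold2, an accessory subunit of polymerase delta, read 9.01, 9.12, 9.04 and 9.12 log2 intensity on deficient ozone arrays, against 8.14, 8.25, 8.40 and 8.32 on deficient air arrays, a difference of 0.80 ± 0.08 (adjusted p = 4.49e-06). In wildtype lungs Pold2 read 8.79, 8.69, 8.85 and 8.71 log2 intensity on wildtype ozone arrays, against 8.21, 7.92, 8.20 and 8.40 on wildtype air arrays, a difference of 0.57 ± 0.08 (adjusted p = 7.84e-05). All deficient ozone arrays also exceeded all wildtype ozone arrays for Pold2. The polymerase epsilon subunit Pole2 lay at 6.64 to 7.27 log2 intensity on deficient ozone arrays, against 6.12 to 6.33 on deficient air arrays, a difference of 0.72 ± 0.12 (adjusted p = 0.000333). Wildtype lungs had Pole2 at 6.70 to 6.77 in ozone, against 6.09 to 6.52 in air, a difference of 0.51 ± 0.12 (adjusted p = 0.00359).

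By brightest probe set, the subunits of polymerase alpha, the large primase subunit and the catalytic subunit of polymerase delta changed least among the polymerases. Dimmer probe sets of Prim2 and Pold1 rose more in both genotypes, as given further on, so the ranking depends on the probe set. Pola1, the catalytic subunit of polymerase alpha, read 6.86, 6.88, 6.62 and 6.70 log2 intensity on deficient ozone arrays, against 6.60, 6.39, 6.69 and 6.58 on deficient air arrays, a difference of 0.20 ± 0.08 (adjusted p = 0.0686). In wildtype lungs Pola1 read 6.63, 6.54, 6.54 and 6.50 log2 intensity on wildtype ozone arrays, against 6.34, 6.22, 6.29 and 6.46 on wildtype air arrays, a difference of 0.23 ± 0.08 (adjusted p = 0.0365). The deficient groups overlapped and the wildtype groups did not. The wildtype call was lost without any one of wildtype air M1, M2 and F1 and wildtype ozone M1, M2 and F1, with adjusted p-values of 0.0612 to 0.115. In deficient lungs Pola1 passed without deficient ozone F1 or deficient air F1 (adjusted p-values of 0.0351 and 0.0390). Pola2, the second subunit of polymerase alpha, read 8.11, 8.23, 8.05 and 8.05 log2 intensity on deficient ozone arrays, against 7.95, 7.86, 7.80 and 7.63 on deficient air arrays, a difference of 0.30 ± 0.08 (adjusted p = 0.00985). In wildtype lungs Pola2 read 8.07, 7.84, 7.99 and 7.91 log2 intensity on wildtype ozone arrays, against 7.95, 7.72, 7.90 and 7.97 on wildtype air arrays, a difference of 0.07 ± 0.08 (adjusted p = 0.530). Wildtype air M1, F1 and F2 lay within the wildtype ozone range.

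Prim2, which pairs with Prim1 in primase, read 6.98, 7.38, 7.06 and 7.23 log2 intensity on deficient ozone arrays, against 6.79, 6.84, 6.97 and 6.70 on deficient air arrays, a difference of 0.33 ± 0.09 (adjusted p = 0.0136). In wildtype lungs Prim2 read 7.09, 6.92, 6.92 and 6.94 log2 intensity on wildtype ozone arrays, against 6.78, 6.69, 6.85 and 7.02 on wildtype air arrays, a difference of 0.13 ± 0.09 (adjusted p = 0.299). The deficient groups were only just apart and the wildtype groups overlapped. Without deficient ozone M2 the adjusted p in deficient lungs was 0.0506. Pold1, the catalytic subunit of polymerase delta, read 7.77, 7.69, 8.02 and 8.20 log2 intensity on deficient ozone arrays, against 7.74, 7.57, 7.92 and 7.53 on deficient air arrays, a difference of 0.23 ± 0.11 (adjusted p = 0.127). In wildtype lungs Pold1 read 7.82, 7.54, 7.61 and 7.82 log2 intensity on wildtype ozone arrays, against 7.63, 7.30, 7.52 and 7.59 on wildtype air arrays, a difference of 0.19 ± 0.11 (adjusted p = 0.194). Both comparisons overlapped for this probe set, and another Pold1 probe set passed in both genotypes.

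The sliding clamp and its loader rose as a whole, 5 of 5 in each genotype, with median log2 differences of 0.60 in deficient lungs and 0.50 in wildtype lungs. Rfc5, a loader subunit, read 7.69, 7.72, 7.37 and 7.68 log2 intensity on deficient ozone arrays, against 6.78, 6.91, 6.86 and 6.80 on deficient air arrays, a difference of 0.77 ± 0.08 (adjusted p = 5.09e-06). In wildtype lungs Rfc5 read 7.61, 7.38, 7.37 and 7.40 log2 intensity on wildtype ozone arrays, against 6.78, 6.78, 6.83 and 6.91 on wildtype air arrays, a difference of 0.61 ± 0.08 (adjusted p = 4.30e-05). Every ozone array stood above the air arrays. Pcna, the clamp that tethers polymerases to DNA, read 11.92, 11.85, 11.56 and 11.63 log2 intensity on deficient ozone arrays, against 11.25, 10.96, 10.91 and 11.09 on deficient air arrays, a difference of 0.69 ± 0.10 (adjusted p = 0.000112). In wildtype lungs Pcna read 11.76, 11.63, 11.67 and 11.47 log2 intensity on wildtype ozone arrays, against 11.26, 10.95, 10.70 and 11.08 on wildtype air arrays, a difference of 0.64 ± 0.10 (adjusted p = 0.000195). The exposures were apart in both genotypes. Rfc4 read 7.63, 7.60, 6.99 and 7.20 log2 intensity on deficient ozone arrays, against 6.78, 6.70, 6.75 and 6.80 on deficient air arrays, a difference of 0.60 ± 0.10 (adjusted p = 0.000469). In wildtype lungs Rfc4 read 7.09, 7.20, 7.16 and 7.15 log2 intensity on wildtype ozone arrays, against 6.60, 6.70, 6.60 and 6.69 on wildtype air arrays, a difference of 0.50 ± 0.10 (adjusted p = 0.00156). Deficient ozone M1 and M2 stood above the females of their group. Rfc2 had the smallest mean rise of the loader over both genotypes and the smallest in deficient lungs, and read 9.38, 9.52, 9.41 and 9.44 log2 intensity on deficient ozone arrays, against 9.20, 9.17, 9.25 and 9.23 on deficient air arrays, a difference of 0.23 ± 0.06 (adjusted p = 0.0100). In wildtype lungs Rfc2 read 9.50, 9.50, 9.37 and 9.48 log2 intensity on wildtype ozone arrays, against 9.05, 8.99, 9.06 and 9.23 on wildtype air arrays, a difference of 0.38 ± 0.06 (adjusted p = 0.000259). The exposures were apart in both genotypes, by a small margin.

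Rfc3 lay at 7.07 to 7.45 log2 intensity on deficient ozone arrays, against 6.77 to 6.99 on deficient air arrays, a difference of 0.46 ± 0.09 (adjusted p = 0.000848). Wildtype lungs had Rfc3 at 7.01 to 7.25 in ozone, against 6.71 to 6.98 in air, a difference of 0.27 ± 0.09 (adjusted p = 0.0234). The wildtype call of Rfc3 was lost without wildtype air M2 or without wildtype ozone M1 or F2, with adjusted p-values of 0.0585 to 0.0862.

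Genes of single-strand binding, Okazaki fragment processing and fork protection moved unevenly, with 3 of 5 rising in deficient lungs and 1 of 5 in wildtype lungs. Lig1, the ligase that seals Okazaki fragments, read 8.97, 8.94, 8.93 and 8.96 log2 intensity on deficient ozone arrays, against 7.72, 7.98, 8.04 and 7.79 on deficient air arrays, a difference of 1.07 ± 0.09 (adjusted p = 1.02e-06). In wildtype lungs Lig1 read 8.93, 8.64, 8.52 and 8.78 log2 intensity on wildtype ozone arrays, against 7.87, 7.85, 8.07 and 7.90 on wildtype air arrays, a difference of 0.79 ± 0.09 (adjusted p = 2.13e-05). The deficient ozone arrays were nearly equal to each other and all ozone arrays exceeded all air arrays. Fen1, the nuclease that trims the fragments, read 10.13, 10.17, 10.28 and 10.45 log2 intensity on deficient ozone arrays, against 9.83, 9.95, 10.05 and 9.74 on deficient air arrays, a difference of 0.36 ± 0.11 (adjusted p = 0.0161). In wildtype lungs Fen1 read 10.60, 10.28, 10.17 and 10.23 log2 intensity on wildtype ozone arrays, against 9.99, 9.92, 10.26 and 10.11 on wildtype air arrays, a difference of 0.25 ± 0.11 (adjusted p = 0.0767). Wildtype air F1 lay within the wildtype ozone range, and Fen1 passed in wildtype lungs without wildtype ozone F1 or wildtype air F1 (adjusted p-values of 0.0418 and 0.0450). The deficient call of Fen1 was lost without the array labelled deficient air F2 or without deficient ozone F2 (adjusted p-values of 0.0579 and 0.0625).

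Rpa2, a subunit of the protein that coats single-stranded DNA, read 7.40, 7.35, 7.39 and 7.30 log2 intensity on deficient ozone arrays, against 6.72, 6.96, 7.03 and 6.75 on deficient air arrays, a difference of 0.49 ± 0.09 (adjusted p = 0.000638). In wildtype lungs Rpa2 read 7.12, 6.91, 6.92 and 6.88 log2 intensity on wildtype ozone arrays, against 6.87, 6.64, 6.99 and 6.90 on wildtype air arrays, a difference of 0.11 ± 0.09 (adjusted p = 0.358). All deficient ozone arrays exceeded the arrays of the other 3 groups for this probe set. A second, dimmer Rpa2 probe set passed in both genotypes. It rose by 0.44 ± 0.09 (adjusted p = 0.00191) in deficient lungs and by 0.27 ± 0.09 (adjusted p = 0.0313) in wildtype lungs. Rpa1, the largest subunit of the same protein, read 10.53, 10.49, 10.38 and 10.41 log2 intensity on deficient ozone arrays, against 10.45, 10.29, 10.38 and 10.28 on deficient air arrays, a difference of 0.10 ± 0.08 (adjusted p = 0.358). In wildtype lungs Rpa1 read 10.39, 10.13, 10.25 and 10.18 log2 intensity on wildtype ozone arrays, against 10.41, 10.14, 10.15 and 10.41 on wildtype air arrays, a difference of -0.04 ± 0.08 (adjusted p = 0.713). The exposures overlapped in both genotypes. Tipin, which helps to stabilise forks, read 9.19, 9.24, 8.92 and 8.82 log2 intensity on deficient ozone arrays, against 8.83, 8.57, 8.92 and 9.04 on deficient air arrays, a difference of 0.20 ± 0.12 (adjusted p = 0.228). In wildtype lungs Tipin read 8.60, 8.80, 8.57 and 8.88 log2 intensity on wildtype ozone arrays, against 8.70, 8.54, 8.66 and 8.89 on wildtype air arrays, a difference of 0.01 ± 0.12 (adjusted p = 0.949). Its ozone and air arrays overlapped in both genotypes.

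Nucleotide synthesis held the largest rise of the set, and 4 of its 5 genes rose in each genotype, with median log2 differences of 1.06 in deficient lungs and 0.86 in wildtype lungs. Rrm2, the small subunit of ribonucleotide reductase, which makes deoxyribonucleotides, read 9.27, 9.28, 8.83 and 9.16 log2 intensity on deficient ozone arrays, against 6.29, 6.14, 6.45 and 6.31 on deficient air arrays, a difference of 2.84 ± 0.12 (adjusted p = 1.27e-09). In wildtype lungs Rrm2 read 8.93, 8.55, 8.59 and 8.87 log2 intensity on wildtype ozone arrays, against 6.34, 6.12, 6.13 and 6.55 on wildtype air arrays, a difference of 2.45 ± 0.12 (adjusted p = 9.74e-09). The rise was 7.15-fold in deficient lungs and 5.47-fold in wildtype lungs, and no array of one exposure came near the other. Tk1, the thymidine kinase of dividing cells, read 8.16, 8.04, 7.59 and 7.69 log2 intensity on deficient ozone arrays, against 5.60, 5.94, 5.50 and 5.62 on deficient air arrays, a difference of 2.20 ± 0.10 (adjusted p = 1.27e-09). In wildtype lungs Tk1 read 7.91, 7.60, 7.35 and 7.59 log2 intensity on wildtype ozone arrays, against 5.71, 5.70, 5.68 and 5.47 on wildtype air arrays, a difference of 1.97 ± 0.10 (adjusted p = 9.51e-09). The rise of Tk1 was 4.61-fold in deficient lungs and 3.92-fold in wildtype lungs. Rrm1, the large subunit of ribonucleotide reductase, read 9.21, 9.23, 9.04 and 9.29 log2 intensity on deficient ozone arrays, against 8.14, 7.98, 8.16 and 8.23 on deficient air arrays, a difference of 1.06 ± 0.08 (adjusted p = 2.77e-07). In wildtype lungs Rrm1 read 9.09, 8.91, 8.91 and 8.95 log2 intensity on wildtype ozone arrays, against 8.07, 7.97, 8.10 and 8.29 on wildtype air arrays, a difference of 0.86 ± 0.08 (adjusted p = 3.12e-06). Its exposures were apart on every array, by less than for Rrm2.

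Dut, the enzyme that removes dUTP, lay at 7.87 to 7.99 log2 intensity on deficient ozone arrays, against 6.71 to 7.15 on deficient air arrays, a difference of 0.97 ± 0.08 (adjusted p = 7.39e-07). Wildtype lungs had Dut at 7.58 to 7.69 in ozone, against 6.79 to 6.97 in air, a difference of 0.77 ± 0.08 (adjusted p = 9.54e-06). Tyms, thymidylate synthase, did not pass in either genotype and read 4.43, 4.45, 4.42 and 4.49 log2 intensity on deficient ozone arrays, against 4.49, 4.44, 4.51 and 4.42 on deficient air arrays, a difference of -0.02 ± 0.08 (adjusted p = 0.903). In wildtype lungs Tyms read 4.62, 4.53, 4.55 and 4.29 log2 intensity on wildtype ozone arrays, against 4.43, 4.52, 4.55 and 4.17 on wildtype air arrays, a difference of 0.08 ± 0.08 (adjusted p = 0.473). Its groups overlapped, and all 3 of its probe sets failed the test in both genotypes. Tyms is among the dimmest genes of the set, as is Orc1, which passed in both genotypes.

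Chromatin and methylation maintenance genes all rose, 4 of 4 in each genotype, with median log2 differences of 1.17 in deficient lungs and 0.95 in wildtype lungs. Uhrf1, which finds half-methylated DNA behind the fork, read 7.68, 7.85, 7.72 and 8.02 log2 intensity on deficient ozone arrays, against 5.25, 5.80, 5.52 and 5.55 on deficient air arrays, a difference of 2.29 ± 0.12 (adjusted p = 8.14e-09). In wildtype lungs Uhrf1 read 7.50, 7.28, 7.28 and 7.53 log2 intensity on wildtype ozone arrays, against 5.50, 5.05, 5.44 and 5.34 on wildtype air arrays, a difference of 2.07 ± 0.12 (adjusted p = 3.14e-08). The rise was 4.88-fold in deficient lungs and 4.19-fold in wildtype lungs. Hells, a chromatin remodeller needed for DNA methylation, read 7.20, 7.53, 7.08 and 7.17 log2 intensity on deficient ozone arrays, against 5.57, 5.65, 5.91 and 5.78 on deficient air arrays, a difference of 1.52 ± 0.10 (adjusted p = 7.09e-08). In wildtype lungs Hells read 6.74, 6.71, 6.68 and 6.90 log2 intensity on wildtype ozone arrays, against 5.46, 5.56, 5.64 and 5.40 on wildtype air arrays, a difference of 1.24 ± 0.10 (adjusted p = 7.79e-07). All deficient ozone arrays were above all wildtype ozone arrays for Hells, and all of these were above the air arrays. Chaf1b, of the chaperone that places histones on new DNA, read 6.16, 6.11, 5.97 and 6.05 log2 intensity on deficient ozone arrays, against 5.16, 5.24, 5.37 and 5.26 on deficient air arrays, a difference of 0.82 ± 0.10 (adjusted p = 4.68e-05). In wildtype lungs Chaf1b read 6.26, 6.00, 5.69 and 5.87 log2 intensity on wildtype ozone arrays, against 5.41, 5.09, 5.31 and 5.43 on wildtype air arrays, a difference of 0.65 ± 0.10 (adjusted p = 0.000267). Chaf1b is among the dimmest genes, and its exposures were apart. Dnmt1, the methyltransferase that copies methylation onto the new strand, read 8.96, 8.91, 9.07 and 9.07 log2 intensity on deficient ozone arrays, against 8.25, 8.34, 8.55 and 8.22 on deficient air arrays, a difference of 0.66 ± 0.09 (adjusted p = 5.06e-05). In wildtype lungs Dnmt1 read 8.81, 8.60, 8.70 and 8.80 log2 intensity on wildtype ozone arrays, against 8.10, 8.06, 8.40 and 8.53 on wildtype air arrays, a difference of 0.46 ± 0.09 (adjusted p = 0.000825). Wildtype air F2 and F1 were the highest of their group and lay below the wildtype ozone arrays.

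**Figure D3:**
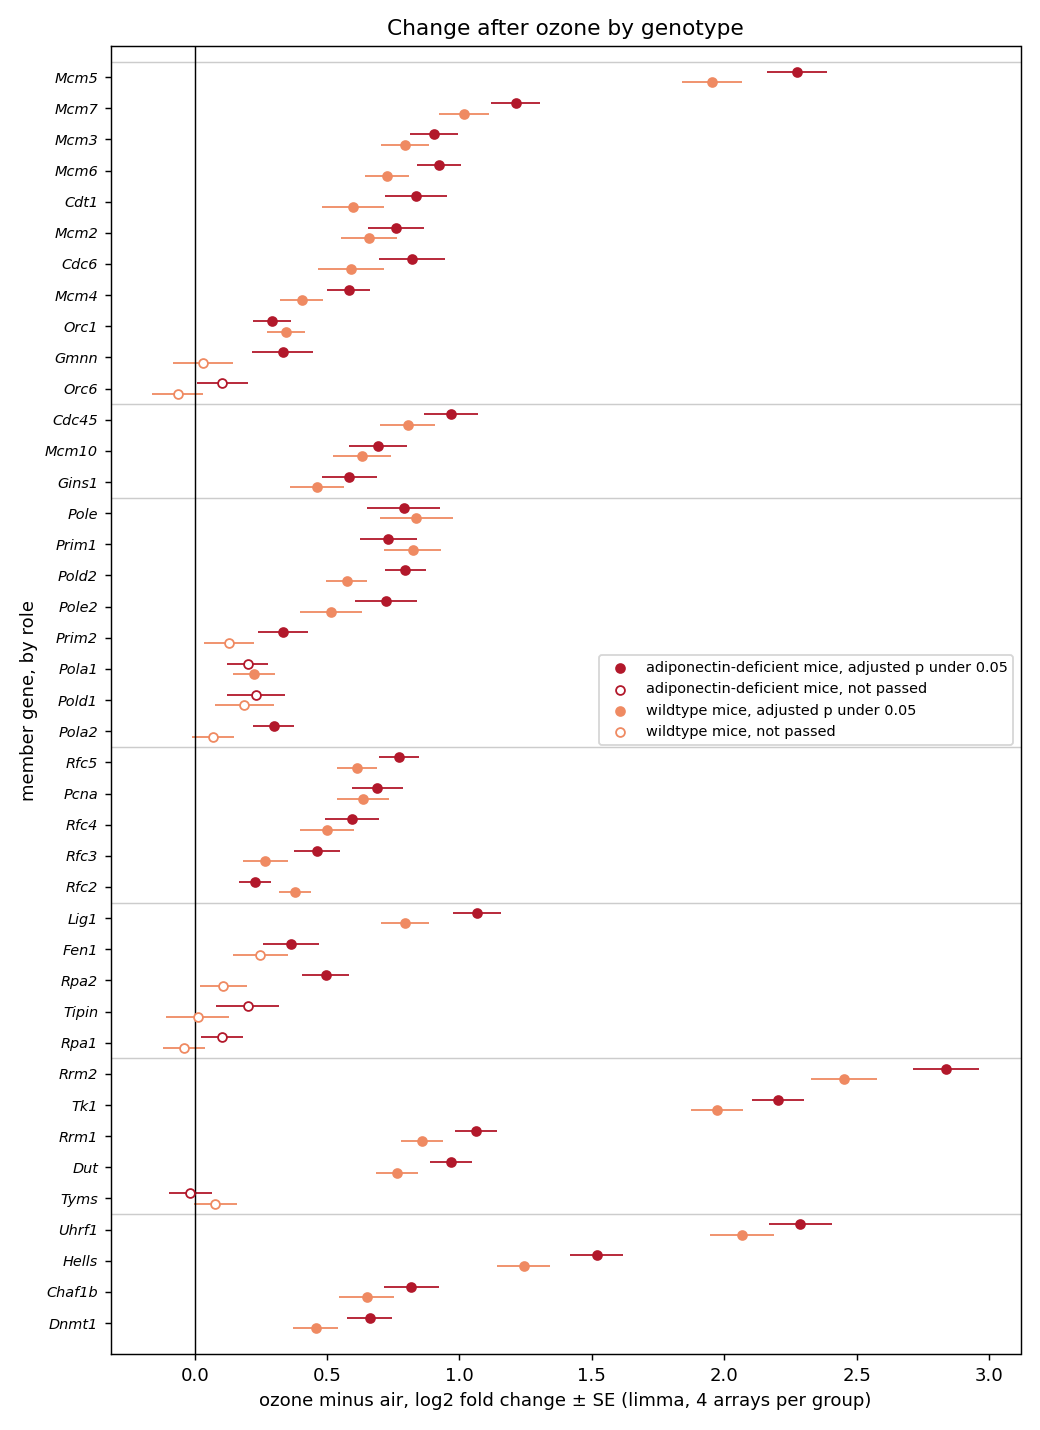
Log2 difference between ozone and air ± SE for each of the 41 genes, by role, in adiponectin-deficient mice (dark red) and wildtype mice (orange), from limma with 4 arrays per group. Filled points passed an adjusted p of 0.05, 35 in deficient and 31 in wildtype mice, and all of them lie right of 0.

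Several genes had more than 1 probe set with a single symbol. Over all 71 such probe sets of the 41 genes, 58 rose and 0 fell in deficient lungs, and 54 rose and 1 fell in wildtype lungs. Of the 22 genes with several, all probe sets rose for 15 in deficient lungs and for 12 in wildtype lungs. The falling probe set was the dimmer one of Rpa1, at -0.25 ± 0.07 (adjusted p = 0.0173) in wildtype lungs. A second Fen1 probe set changed more than the brightest one, by 1.28 ± 0.09 (adjusted p = 1.60e-07) in deficient lungs and by 1.06 ± 0.09 (adjusted p = 1.35e-06) in wildtype lungs. The brightest Fen1 and Pold1 probe sets both belong to a kind whose probes can also match other transcripts, as do those of Mcm3, Rrm2 and Dnmt1. A second Pold1 probe set rose by 0.62 ± 0.11 (adjusted p = 0.000686) in deficient lungs and by 0.54 ± 0.11 (adjusted p = 0.00173) in wildtype lungs. A second Prim2 probe set rose by 0.48 ± 0.09 (adjusted p = 0.00117) in deficient lungs and by 0.38 ± 0.09 (adjusted p = 0.00513) in wildtype lungs. The Pola2 call in deficient lungs was not shared by its dimmer probe set, which stood at -0.19 ± 0.08 (adjusted p = 0.10). A second Uhrf1 probe set rose by 1.34 ± 0.15 (adjusted p = 1.47e-05) in deficient lungs and by 1.11 ± 0.15 (adjusted p = 7.09e-05) in wildtype lungs, less than the brightest. A second Prim1 probe set rose by 0.40 ± 0.08 (adjusted p = 0.00232) in deficient lungs, and in wildtype lungs it did not pass, at 0.09 ± 0.08 (adjusted p = 0.405).

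**Figure D4:**
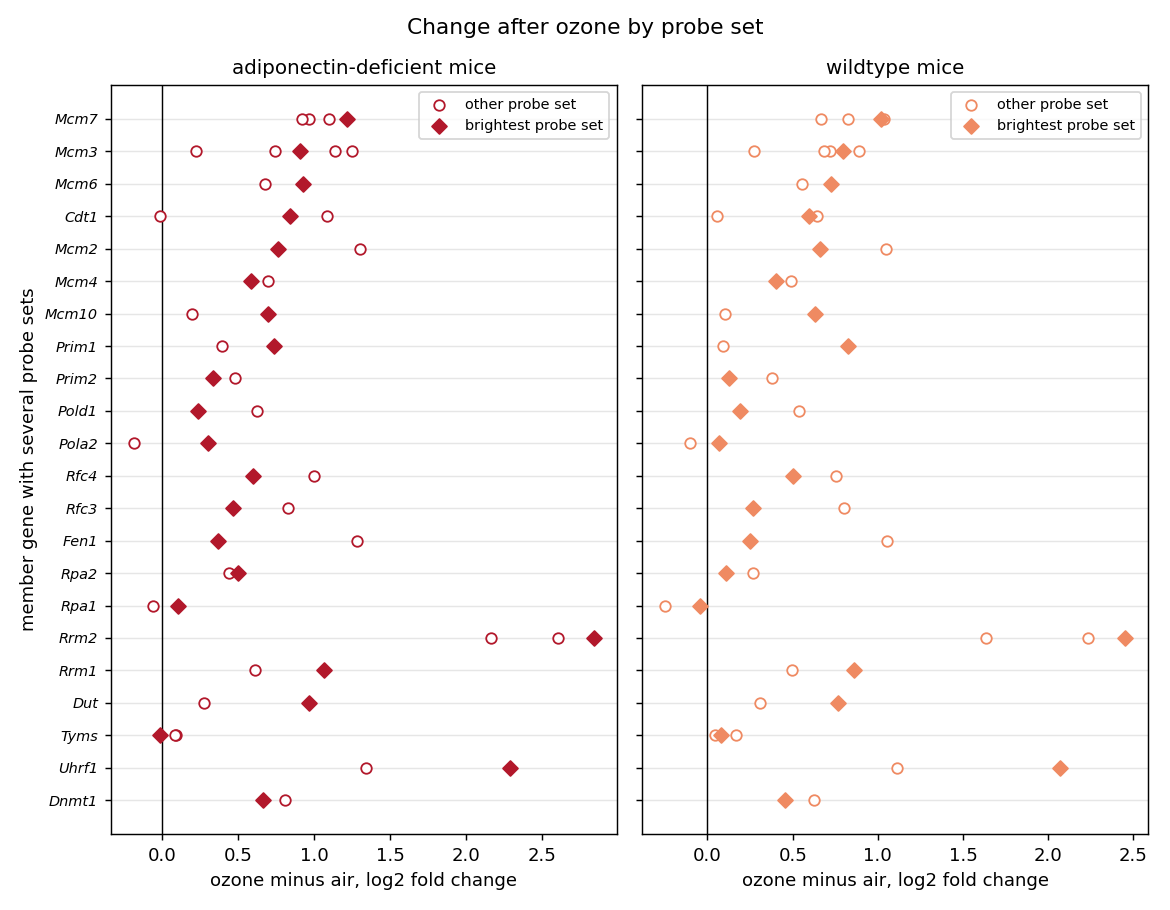
Log2 difference between ozone and air for every probe set of the 22 replication genes with more than 1, in adiponectin-deficient mice (left) and wildtype mice (right), with filled diamonds for the brightest probe set and open circles for the others. Most probe sets of a gene lie on the same side of 0, and Fen1, Pold1, Prim1 and Uhrf1 are among the genes whose probe sets lie far apart.

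Next the genotypes were compared within each exposure. In ozone, 0 of the 41 genes passed the test between deficient and wildtype lungs, where 0.0161% of all genes passed. The differences leaned one way, with 36 genes higher and 5 lower in deficient ozone and a median of 0.22. Among all genes 5843 were higher and 6550 lower, with a median of -0.0080. At an unadjusted p under 0.05, 23 genes were higher and 0 lower, and over all genes 641 were higher and 751 lower. The smallest adjusted p was 0.127, for Hells, at 0.49 ± 0.10 (adjusted p = 0.127). The deficient and wildtype ozone arrays did not overlap for 9 genes, Cdt1, Gmnn, Mcm7, Pold2, Rpa2, Dut, Uhrf1, Dnmt1 and Hells, all higher in deficient ozone, and 0 genes were apart with deficient ozone lower. Among all genes 2.16% were apart with deficient ozone higher and 3.32% with it lower. Among the 9, Rpa2 differed by 0.40 ± 0.09 (adjusted p = 0.143), Uhrf1 by 0.42 ± 0.12 (adjusted p = 0.261), and Gmnn by 0.41 ± 0.11 (adjusted p = 0.242). Dimmer probe sets differed by 0.19 ± 0.09 for Rpa2 and 0.09 ± 0.15 for Uhrf1. For Dnmt1 the dimmer one stood at 0.15 ± 0.08 against 0.28 ± 0.09, and for Dut at -0.0007 ± 0.07 against 0.30 ± 0.08. Those of Cdt1 stood at 0.29 ± 0.11 and -0.03 ± 0.06, against 0.35 ± 0.12 for its brightest. Those of Mcm7 stood at 0.15 ± 0.06, 0.12 ± 0.06 and 0.29 ± 0.07, against 0.25 ± 0.09.

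In air 0 genes passed between the genotypes, where 0.00807% of all genes passed. At an unadjusted p under 0.05, 1 of the 41 genes was higher and 0 were lower, and of all 12393 genes 331 were higher and 401 lower. The differences were positive for 30 genes and negative for 11, with a median of 0.04. For all genes 6027 were positive and 6366 negative, with a median of -0.0030. None of the 41 genes had genotypes that did not overlap. Among all genes 0.815% were apart with deficient air higher and 1.62% with it lower. The largest difference in air was that of Pola1, at 0.24 ± 0.08 (adjusted p = 0.762).

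Whether ozone acted differently on the genotypes was tested by the interaction, the ozone difference in deficient lungs minus that in wildtype lungs. It passed for 0 of the 41 genes and for 0.0% of all genes. The interaction was positive for 35 genes and negative for 6, with a median of 0.19. Over all genes it was positive for 6040 and negative for 6353, with a median of -0.0042. At an unadjusted p under 0.05 it was positive for Rpa2, at 0.39 ± 0.12 (adjusted p = 0.983), and for Rrm2, at 0.39 ± 0.18 (adjusted p = 0.983), and negative for 0 genes. The interaction of the dimmer Rpa2 probe set was smaller, at 0.17 ± 0.13. Those of the dimmer Rrm2 probe sets were 0.37 ± 0.15 and 0.52 ± 0.17. Of all 12393 genes, 298 were positive and 307 negative at that unadjusted p. The standard errors of the single genes' interactions were 0.09 to 0.20. Since the interaction passed for none of them, the genes that passed in 1 genotype alone were not shown to differ between genotypes.

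**Figure D5:**
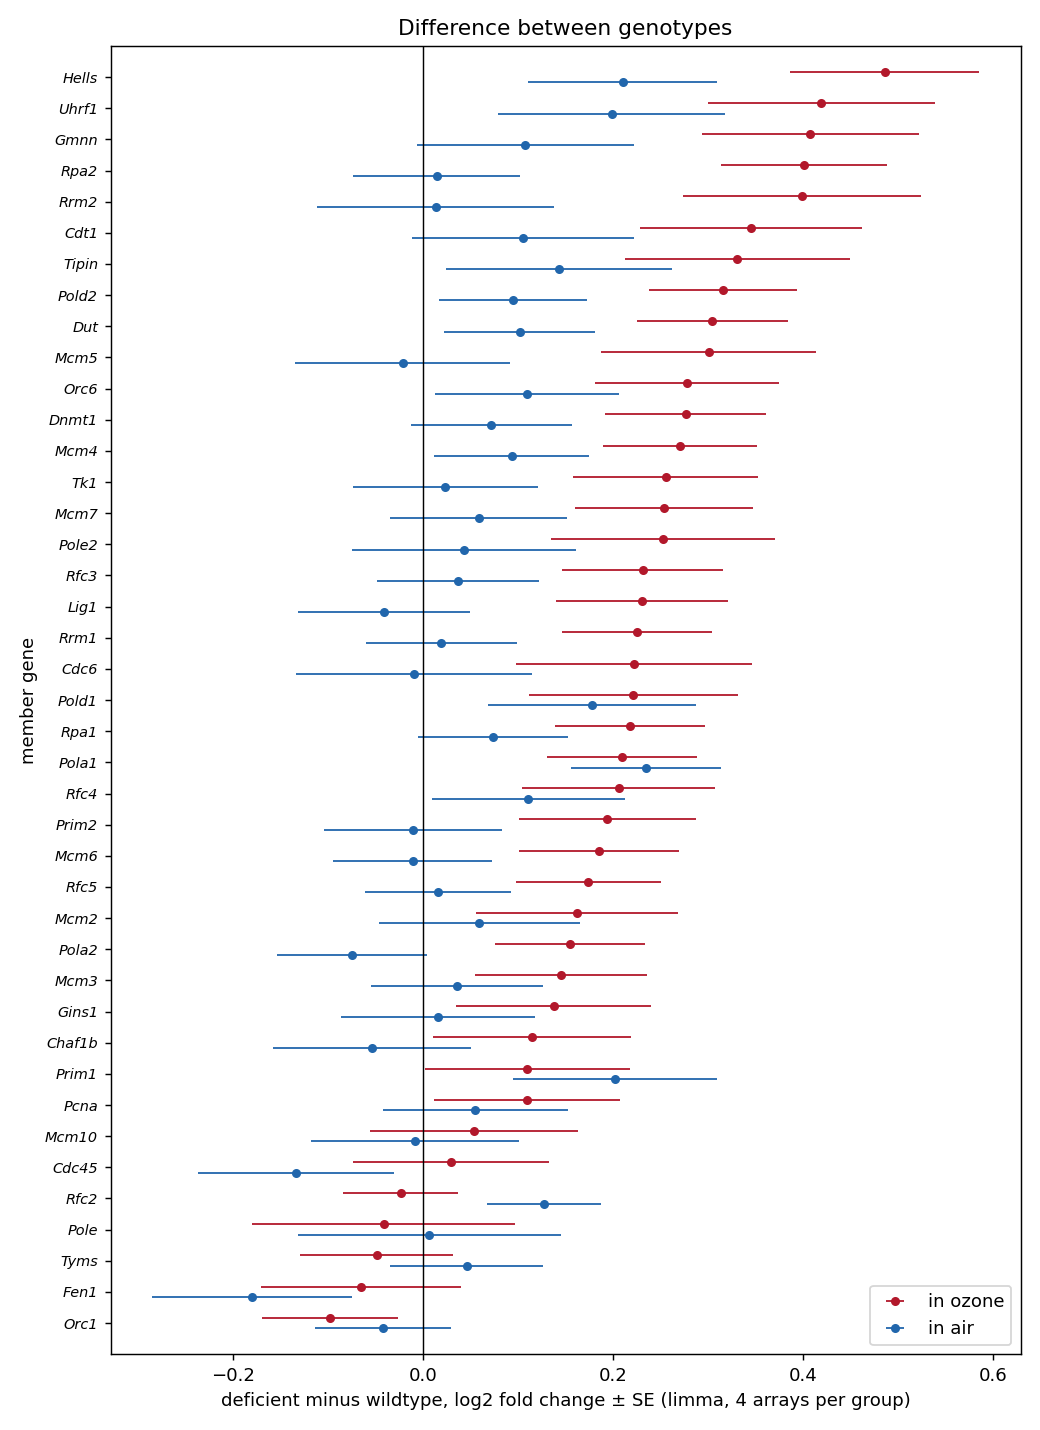
Log2 difference between deficient and wildtype mice ± SE for each of the 41 genes, in ozone (dark red) and in air (blue), from limma with 4 arrays per group, sorted by the difference in ozone. In ozone 36 of the 41 points lie right of 0 and in air 30 do, and none passed an adjusted p of 0.05.

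Both sexes were in every group. Over the 16 arrays, 0 genes were higher and 2 were lower in females than in males, Tk1 and Mcm4, where 3.11% of all genes were higher and 2.55% were lower. The female minus male difference was -0.27 ± 0.07 (adjusted p = 0.0337) for Tk1 and -0.21 ± 0.06 (adjusted p = 0.0485) for Mcm4. Tk1 averaged 7.64 in females and 8.10 in males in deficient ozone, and 7.47 in females and 7.75 in males in wildtype ozone. In deficient air it averaged 5.56 in females and 5.77 in males, and in wildtype air 5.57 in females and 5.71 in males. Mcm4 averaged 8.75 in females and 9.15 in males in deficient ozone, and 8.60 in females and 8.76 in males in wildtype ozone. Both calls were lost in many alternatives, 11 of 23 for Tk1 and 16 of 23 for Mcm4. Over all settings, passing or not, the adjusted p-values were 0.0214 to 0.0714 for Tk1 and 0.0288 to 0.563 for Mcm4. Over all 71 probe sets of the 41 genes, 0 were higher and 7 were lower in females than in males. Beside those of Tk1 and Mcm4 these were dimmer probe sets of Fen1, Rrm1, Rrm2, Rpa2 and Rpa1, with differences of -0.29 ± 0.06 (adjusted p = 0.0126), -0.38 ± 0.09 (adjusted p = 0.0137), -0.36 ± 0.08 (adjusted p = 0.0149), -0.23 ± 0.06 (adjusted p = 0.0347) and -0.19 ± 0.05 (adjusted p = 0.0350). The brightest probe sets of those 5 genes did not pass, at 0.05 ± 0.07 for Fen1, 0.05 ± 0.06 for Rrm1, -0.004 ± 0.09 for Rrm2, 0.02 ± 0.06 for Rpa2 and -0.05 ± 0.06 for Rpa1. A second Mcm4 probe set stood at 0.04 ± 0.11 (adjusted p = 0.864). The share of all probe sets of the arrays that differed by sex was not counted. The ozone difference in females minus that in males passed for 0 genes, where 0.00807% of all genes passed. It was negative for 38 of the 41 genes and positive for 3, with a median of -0.18. All genes leaned the same way, with 7177 negative and 5216 positive and a median of -0.025. At an unadjusted p under 0.05 it was negative for 12 of the 41 genes and positive for 0, and the smallest adjusted p was 0.290. Of all 12393 genes, 660 were negative and 412 positive at that unadjusted p.

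Other genes of the same processes moved less uniformly. Of 39 further fork and origin genes, 29 were measured, and 12 rose and 1 fell in deficient lungs while 11 rose and 2 fell in wildtype lungs. Top2a, the topoisomerase that untangles replicated DNA, rose by 2.75 ± 0.11 (adjusted p = 5.30e-10) in deficient lungs and by 2.42 ± 0.11 (adjusted p = 5.17e-09) in wildtype lungs. Pclaf, which binds the clamp, rose by 1.68 ± 0.14 (adjusted p = 9.83e-07) in deficient lungs and by 1.63 ± 0.14 (adjusted p = 1.88e-06) in wildtype lungs. Dbf4, the activator of the origin-firing kinase Cdc7, rose by 1.11 ± 0.11 (adjusted p = 6.62e-06) in deficient lungs and by 0.81 ± 0.11 (adjusted p = 9.62e-05) in wildtype lungs. Orc4, an origin recognition subunit, was lower in ozone in both, at -0.29 ± 0.08 (adjusted p = 0.0134) in deficient lungs and -0.38 ± 0.08 (adjusted p = 0.00187) in wildtype lungs. Rif1, which restrains origin firing, fell in wildtype lungs, at -0.32 ± 0.09 (adjusted p = 0.0129), and stood at -0.16 ± 0.09 (adjusted p = 0.204) in deficient lungs.

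Of 40 other genes of nucleotide metabolism, 33 were measured, and 15 rose and 3 fell in deficient lungs while 12 rose and 3 fell in wildtype lungs. Shmt1, which feeds one-carbon units to thymidylate synthesis, rose by 1.24 ± 0.31 (adjusted p = 0.00649) in deficient lungs and by 1.98 ± 0.31 (adjusted p = 0.000208) in wildtype lungs. Ctps, a CTP synthase, rose by 1.13 ± 0.15 (adjusted p = 8.39e-05) in deficient lungs and by 1.02 ± 0.15 (adjusted p = 0.000170) in wildtype lungs. Uck2, a uridine and cytidine kinase, rose by 0.98 ± 0.08 (adjusted p = 1.17e-06) in deficient lungs and by 0.66 ± 0.08 (adjusted p = 4.94e-05) in wildtype lungs. The counterparts of Rrm2 and Tk1 that serve resting cells went the other way. Rrm2b, the other small subunit of ribonucleotide reductase, was lower in ozone, at -0.67 ± 0.09 (adjusted p = 9.85e-05) in deficient lungs and -0.69 ± 0.09 (adjusted p = 7.29e-05) in wildtype lungs. Tk2, the mitochondrial thymidine kinase, was lower too, at -0.37 ± 0.11 (adjusted p = 0.0175) in deficient lungs and -0.56 ± 0.11 (adjusted p = 0.00125) in wildtype lungs. Dhodh, of pyrimidine synthesis, fell in deficient lungs, at -0.24 ± 0.06 (adjusted p = 0.00681), and stood at -0.12 ± 0.06 (adjusted p = 0.134) in wildtype lungs.

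Of 19 histone chaperone and DNA methylation genes outside the set, 15 were measured, and 5 rose and 2 fell in deficient lungs while 3 rose and 3 fell in wildtype lungs. The histone chaperone Asf1b rose by 1.12 ± 0.10 (adjusted p = 1.39e-06) in deficient lungs and by 1.15 ± 0.10 (adjusted p = 1.56e-06) in wildtype lungs. Ezh2, the methyltransferase of the Polycomb repressive complex, rose by 0.73 ± 0.10 (adjusted p = 9.99e-05) in deficient lungs and by 0.47 ± 0.10 (adjusted p = 0.00257) in wildtype lungs. Its partner Suz12 fell, at -0.46 ± 0.07 (adjusted p = 0.000112) in deficient lungs and -0.60 ± 0.07 (adjusted p = 1.35e-05) in wildtype lungs, as did its partner Eed, at -0.30 ± 0.07 (adjusted p = 0.00342) in deficient lungs and -0.38 ± 0.07 (adjusted p = 0.000552) in wildtype lungs. Nasp, another histone chaperone, rose by 0.55 ± 0.07 (adjusted p = 7.48e-05) in deficient lungs and by 0.27 ± 0.07 (adjusted p = 0.0105) in wildtype lungs. Mbd4, a repair glycosylase, fell in wildtype lungs, at -0.38 ± 0.08 (adjusted p = 0.00142), and stood at 0.14 ± 0.08 (adjusted p = 0.173) in deficient lungs.

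Of 14 genes of mitochondrial and repair DNA synthesis, 12 were measured, and 0 rose and 3 fell in deficient lungs while 0 rose and 4 fell in wildtype lungs. Polg2, of the mitochondrial polymerase, stood at -0.59 ± 0.11 (adjusted p = 0.000944) in deficient lungs and at -0.62 ± 0.11 (adjusted p = 0.000595) in wildtype lungs. Rev3l, the catalytic subunit of polymerase zeta, stood at -0.61 ± 0.08 (adjusted p = 5.63e-05) in deficient lungs and at -0.59 ± 0.08 (adjusted p = 7.99e-05) in wildtype lungs. Rev1, which works with it past DNA damage, stood at -0.66 ± 0.10 (adjusted p = 0.000223) in deficient lungs and at -0.54 ± 0.10 (adjusted p = 0.000941) in wildtype lungs. All 3 passed as lower in ozone in both genotypes.

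Of 19 genes of the E2F and retinoblastoma families and their partners, 14 were measured, and 7 rose and 1 fell in deficient lungs while 8 rose and 3 fell in wildtype lungs. Mybl2, a factor that activates late cell cycle genes, rose by 0.57 ± 0.09 (adjusted p = 0.000401) in deficient lungs and by 0.58 ± 0.09 (adjusted p = 0.000297) in wildtype lungs. Tfdp1, the binding partner of E2F factors, rose by 0.48 ± 0.07 (adjusted p = 0.000118) in deficient lungs and by 0.56 ± 0.07 (adjusted p = 3.60e-05) in wildtype lungs. E2f8, a repressor of the family, rose by 0.58 ± 0.10 (adjusted p = 0.000543) in deficient lungs and by 0.42 ± 0.10 (adjusted p = 0.00466) in wildtype lungs. Rbl2, the pocket protein p130 of resting cells, fell in both, at -0.44 ± 0.10 (adjusted p = 0.00458) in deficient lungs and -0.60 ± 0.10 (adjusted p = 0.000437) in wildtype lungs. Rb1, the retinoblastoma protein, fell in wildtype lungs, at -0.43 ± 0.12 (adjusted p = 0.00996), and stood at -0.31 ± 0.12 (adjusted p = 0.0537) in deficient lungs. E2f5, a repressive family member, fell in wildtype lungs, at -0.41 ± 0.09 (adjusted p = 0.00232), and stood at -0.18 ± 0.09 (adjusted p = 0.142) in deficient lungs.

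Markers of the cells a lung piece can hold were summed as intensities on each array. Thymocytes, which divide fast and lie near the lung, were looked at through 6 markers, which summed to 344 to 389 in deficient ozone, 360 to 394 in wildtype ozone, 345 to 395 in deficient air and 349 to 434 in wildtype air. Rag1, which defines them, read 3.77 to 3.97 log2 intensity in deficient ozone, 3.84 to 3.95 in wildtype ozone, 3.73 to 3.97 in deficient air and 3.79 to 3.93 in wildtype air. Of these markers 0 rose and 0 fell in deficient lungs, and 1 rose and 1 fell in wildtype lungs. Erythroid precursor markers, 4 of 5 measured, summed to 324 to 422 in deficient ozone, 349 to 437 in wildtype ozone, 316 to 373 in deficient air and 350 to 368 in wildtype air. Of them Klf1 rose in wildtype lungs by 0.30 ± 0.10 (adjusted p = 0.0220), and Hemgn differed by -0.18 ± 0.06 (adjusted p = 0.0249) in deficient lungs, a fall that passed. Fibroblast markers moved in both directions, with 2 of 4 rising and 1 falling in each genotype. Of them Col1a1 rose by 1.60 ± 0.16 (adjusted p = 6.49e-06) in deficient lungs and by 1.19 ± 0.16 (adjusted p = 8.25e-05) in wildtype lungs, and Col1a2 rose as well. Pdgfra fell, at -0.31 ± 0.09 (adjusted p = 0.0153) in deficient lungs and -0.39 ± 0.09 (adjusted p = 0.00334) in wildtype lungs. Dcn did not pass, at -0.43 ± 0.17 (adjusted p = 0.0768) in deficient lungs and -0.19 ± 0.17 (adjusted p = 0.428) in wildtype lungs. B cell markers summed to 469 to 1290 in deficient ozone, 419 to 823 in wildtype ozone, 928 to 1465 in deficient air and 868 to 1966 in wildtype air, with 1 of 3 falling in each genotype. Of the 2 T cell markers measured, Cd3g rose in deficient lungs by 0.46 ± 0.16 (adjusted p = 0.0379), and neither passed in wildtype lungs. Neutrophil markers, all 5 measured, summed to 3717 to 6756 in deficient ozone, 1873 to 40868.4 in wildtype ozone, 2169 to 5960.5 in deficient air and 2599 to 6847 in wildtype air, and 0 of the 5 passed in either genotype. Ngp, a granule protein of developing neutrophils, reached 12.17 log2 intensity in wildtype ozone. Apart from M2, the wildtype ozone arrays summed to at most 2721. Macrophage markers had 0 of 5 passing in either genotype, and endothelial markers had 2 of 4 rising in deficient lungs and 0 in wildtype lungs. Of the 4 alveolar type 2 markers measured, 1 rose in each genotype and 0 fell. Of the 3 club cell markers, 0 rose in either genotype, and 1 fell in deficient lungs and 0 in wildtype lungs. The part of these cells in the rise of the replication genes was not tested.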

How the data were processed

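Per the labels, biotin-labelled cRNA from the left lungs of 16 mice went onto 1 Affymetrix array each. For every probe set and array the authors deposited an intensity on a linear scale, made by RMA per the submitters' processing notes. The sources used here do not give the software. The log2 of each deposited intensity was taken. The design had foreseen values already on a log2 scale, and the tests are the same. RMA normalizes between arrays, so a shift of the whole RNA pool cannot be seen, and no detection calls were used. Of 22690 probe sets, 64 controls, 691 with several gene symbols and 1555 with none were left out. The remaining 20380 carried 1 symbol of a platform annotation that can be old.

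All 16 arrays were fitted with lmFit and eBayes of limma 3.58.1 (R 4.3.3, two-sided) on the 4 groups plus sex, or on 8 groups for the interaction of ozone with sex. A gene passed at a Benjamini-Hochberg adjusted p under 0.05 over 12393 genes. Adipoq was tested by exact permutation. On simulated data with 200 changed genes of 12393 and independent noise, the fit recovered 90% of log2 changes of 0.5 for ozone in deficient mice. It recovered 76% for ozone in wildtype mice and 54% for the interaction, and 3.98%, 5.21% and 7.03% of the calls were false, in that order. Both ozone comparisons have the same SE for each gene, so their shares do not mean lower power in wildtype mice. Many more than 200 genes passed for ozone in the real data, so the shares may differ there. Counts were made with pandas 2.3.3 and figures with matplotlib 3.10.9 in Python 3.11.15. Promoter letters were searched on both strands.

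The members, their roles and the other lists were chosen with earlier results of these data known. Per role, arrays were printed for the 3 genes with the largest and the 1 with the smallest mean ozone difference, for genes that did not pass in 1 or both genotypes, and for genes that passed for sex. Of the other lists, the 3 largest rises and the 3 largest falls that passed were named. Alternatives were repeated quantile normalization, a common median, genes under the 0.25 quantile of brightness left out, the mean of a gene's probe sets, each probe set alone, an intensity trend with a robust prior, no sex term, the replicate number as a block, fits on the compared groups only, fits lacking 1 array at a time and fits lacking wildtype air F1 and deficient air F2 and M2, arrays picked from earlier results of these data. Fits lacking deficient ozone F2 as well were added after seeing the data.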

Additional observations from a re-analysis of the deposited data

Results flagged for a closer look

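Each gene's 4 arrays per group were searched for a single array far from the other 3 (Dixon's ratio above its critical value, which chance alone exceeds in about 1 of 20 groups). Of 164 groups, 12 held such an array, on the log2 intensity scale. Wildtype ozone M1 was the high array for Mcm2, at 9.43 against 9.16 to 9.17 on the others of its group. It was high for Mcm3 at 8.31 against 8.02 to 8.06, and for Mcm4 at 8.88 against 8.60 to 8.64. For Prim2 it stood at 7.09 against 6.92 to 6.94. Rfc5 was 7.61 on the same array against 7.37 to 7.40, and Rpa2 was 7.12 against 6.88 to 6.92.

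Wildtype air F2 was high for Gmnn, at 8.64 against 8.16 to 8.18, and for Pole2, at 6.52 against 6.09 to 6.16. The same array was low for Tk1, at 5.47 against 5.68 to 5.71. Pole2 was also low on deficient air M2, at 6.12 against 6.31 to 6.33. Rfc5 was low on deficient ozone F1, at 7.37 against 7.68 to 7.72. Rfc2 was low on wildtype ozone F1, at 9.37 against 9.48 to 9.50.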

How the results depend on the processing

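Over the alternatives that give every gene 1 value, 29 to 36 genes rose in deficient lungs and 28 to 35 in wildtype lungs, and 0 fell in either. With each probe set taken alone, the dimmer one of Rpa1 was a call of a fall in wildtype lungs, at -0.25 (adjusted p = 0.0173). With each array left out in turn the counts were 33 to 36 in deficient lungs and 29 to 31 in wildtype lungs. Genotype in ozone, genotype in air, the interaction and ozone by sex stayed at 0 genes in each alternative, arrays left out in turn included. The count of genes that differed by sex, 2, was 1 with a common median, 1 with the mean of a gene's probe sets, 1 without the 3 air arrays that hold other tissue and 0 when deficient ozone F2 was left out too, and it was 0 to 3 with each array left out. Adipoq differed by -2.11 to -1.37 with each array left out. In deficient lungs the direction turned for the third Cdt1 probe set taken alone, at -0.019 (adjusted p = 0.858), and for the dimmer Pola2 probe set taken alone, at -0.19 (adjusted p = 0.10), and the cause was not tested. Over all genes, without those 3 air arrays and deficient ozone F2, 1239 rose and 1158 fell in deficient lungs, against 1954 and 1807 with all arrays.

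Arrays of the groups shared replicate numbers. The deviations from the group means of arrays of the same number correlated at -0.04 to 0.35, with 18 of 24 pairs above 0.1. Arrays of the same number are also of the same sex, and sex was not taken out of these deviations. The correlations therefore cannot tell whether the number pairs the mice. With the replicate number as a block, 35 genes rose in deficient lungs, 31 rose in wildtype lungs, and 0 passed for genotype in ozone, genotype in air or the interaction. Groups of 4 arrays and dim probe sets limit what could be detected.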
